A study of Anas platyrhynchos with 18 samples.

Results

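The 8 main strands of the let-7 family (let-7a-5p, let-7b, let-7c-5p, let-7f-5p, let-7g-5p, let-7i, let-7j-5p and let-7k-5p) were followed in the skin of Pekin ducks through 6 stages of feather growth. They were chosen by name from 353 miRNAs with a count in at least 1 library, and the counts of hairpins that give the same mature miRNA were added. The stages were embryonic days 11, 15 and 20 (11EM, 15EM and 20EM), all before hatch, and 1 day (1DB), 4 weeks (4WK) and 10 weeks (10WK) of age, all after hatch. Small RNAs from whole skin taken above the thoracic vertebrae of untreated birds were sequenced, and 17 of the 18 libraries in the series are described here, 3 for each stage except 20EM, which had 2 (replicates 1 and 3). The sources do not say how the birds sampled at a stage were divided over its libraries, so a p-value measures the spread between these libraries alone.

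let-7 was first found as a timing gene in the nematode Caenorhabditis elegans, and its sequence is nearly the same in birds, mammals and insects. In vertebrates the family is scarce in stem cells and early embryos and abundant in differentiated tissue, because LIN28 proteins block the cutting of let-7 precursors in early cells. The mature strands repress growth-promoting messengers, among them those of HMGA2, LIN28, RAS and MYC, through pairing at the seed near the 5′ end. Members with the same seed are thought to share most targets, and they differ mainly in the bases behind it.

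The sequences of the 8 strands show how close they are and which of them the sequencing could not separate. Each is printed 5′ to 3′ as the study lists it for chicken in miRBase 21, with the seed (bases 2 to 8) in capitals. let-7d, the other listed miRNA with this seed, is added for comparison.
let-7a-5p: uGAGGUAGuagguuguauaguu
let-7j-5p: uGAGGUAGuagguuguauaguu
let-7c-5p: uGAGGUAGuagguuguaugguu
let-7b: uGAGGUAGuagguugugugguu
let-7f-5p: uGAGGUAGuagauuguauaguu
let-7k-5p: uGAGGUAGuagauugaauaguu
let-7g-5p: uGAGGUAGuaguuuguacagu
let-7i: uGAGGUAGuaguuugugcugu
let-7d: aGAGGUAGuggguugcauagu

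The seed was the same in all 8 strands, and 9 of 328 listed miRNAs with a sequence carried it. Counted from 1 at the 5′ end and with let-7a-5p as the first sequence, let-7c-5p differed by A19G and let-7f-5p by G12A. let-7b differed from let-7a-5p by A17G and A19G, and from let-7c-5p by 1 base. let-7k-5p differed from let-7a-5p by G12A and U16A, and from let-7f-5p by 1 base. let-7g-5p differed from let-7a-5p by G12U and U18C, and let-7i by G12U, A17G, U18C and A19U. The sources used here do not give the mismatches allowed when reads were matched to these names, so how many reads passed between strands that differ by 1 base was not tested.

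let-7a-5p and let-7j-5p are the same sequence, and their counts are not separate measurements. The sequence comes from 4 hairpins, let-7a-1, let-7a-2, let-7a-3 and let-7j. In each of the 17 libraries each hairpin held between 24.7% and 25.2% of the counts on the 4, against 25.0% for an equal split, and let-7a-5p had 2.99 to 3.05 times the counts of let-7j-5p. The values of let-7j-5p below therefore repeat those of let-7a-5p at a lower level.

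**Figure D1:**
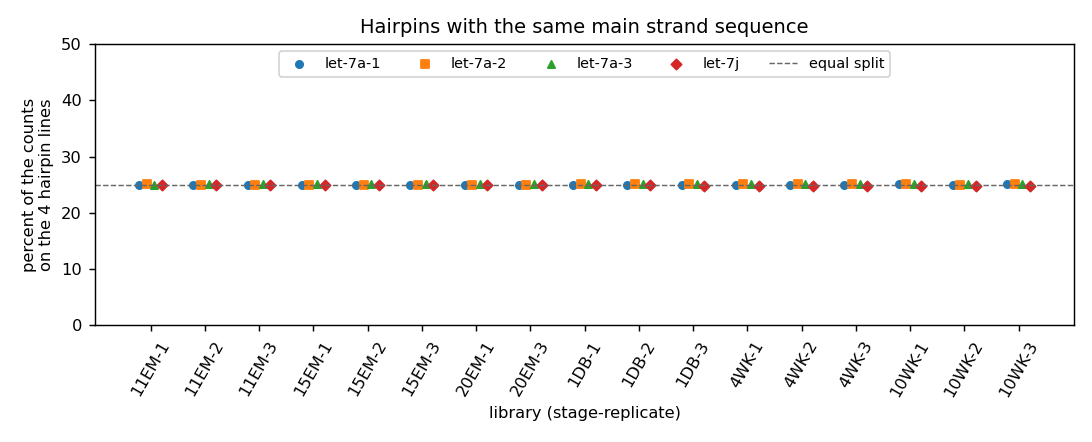
Percent (vertical axis) of the counts on the 4 hairpins with the let-7a-5p sequence that was given to each hairpin, in each of the 17 libraries (horizontal axis, stage and replicate). The points lie between 24.7% and 25.2% in every library, along the dashed line of an equal split.

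The libraries held 3072942 to 15839714 counts on miRNAs, with a median of 7606084, so that 3 counts corresponded to 0.189 to 0.976 counts per 1000000 counts on miRNAs (CPM). No member came near that floor. The widest 95% Wilson interval of a member, for let-7b in replicate 3 at 11EM, ran from 88.2 to 98.8 CPM around 93.3 CPM, and it covers counting error only. The tissue label was checked with miRNAs of the epidermis (miR-203a, miR-205a, miR-205b, miR-200a-3p, miR-200b-3p and miR-429-3p). Their summed level was 36358 to 118963 CPM at the later stages and 21955 to 44825 CPM at 11EM.

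As a share of the miRNA counts, the family as a whole was lowest at 11EM. The 8 strands added up to 28428 ± 4757 CPM at 11EM, then to 50447 ± 6667 CPM at 15EM and 47634 ± 4763 CPM at 20EM. After hatch they added up to 46368 ± 1913 CPM at 1DB, 54547 ± 8029 CPM at 4WK, and 51304 ± 1567 CPM at 10WK (SD over 3 libraries, or 2 at 20EM). On this scale most of the change in the sum lay between 11EM and 15EM, and the highest stage mean was 1.92 times the lowest. The order was another one per 1000000 clean reads, that is, all reads the study kept after trimming. On that scale the sum was 15934 ± 4203 at 11EM, then 30730.0 ± 5537 at 15EM and 19668 ± 9924 at 20EM, and after hatch it was 12666 ± 3004 at 1DB, 8269 ± 3042 at 4WK, its lowest, and 9858 ± 2100.4 at 10WK (SD over 3 libraries, or 2 at 20EM). let-7f-5p was the most abundant member at every stage and ranked 12 among the 353 miRNAs by mean CPM, followed by let-7a-5p (rank 21), let-7i (29), let-7j-5p (37), let-7g-5p (40), let-7c-5p (41), let-7b (58) and let-7k-5p (64).

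The members did not move alike over the stages. The stage means of let-7b and let-7k-5p spanned ranges of 19.5-fold and 12.8-fold, let-7c-5p stayed nearly level, and the others spanned ranges of 1.52-fold to 2.16-fold.

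let-7b showed the widest range of the 8. Its 3 libraries at 11EM had 104, 114 and 93.3 CPM. At 15EM they had 708, 1195 and 788 CPM, and at 20EM 944 and 1082 CPM. The step from 11EM to 15EM thus separated the libraries of those stages fully, as it did for every member but let-7c-5p. The share of all tested miRNAs separated in this way was not counted. After hatch let-7b had 1459, 1850.2 and 1699 CPM at 1DB, 2320.4, 1833 and 1940.1 CPM at 4WK, and 1849, 2012 and 1930.4 CPM at 10WK. The highest stage mean, at 4WK, was 19.5 times the lowest.

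let-7k-5p was nearly as variable, but its largest step came later. It had 159, 139 and 200.2 CPM at 11EM, 298, 209.8 and 256 CPM at 15EM, and 481 and 338 CPM at 20EM. After hatch it had 986, 1393 and 887 CPM at 1DB, 2056, 1463 and 1971 CPM at 4WK, and 2006, 2154 and 2221 CPM at 10WK. Its lowest library after hatch therefore lay above its highest before hatch, 887 CPM against 481 CPM. The stage mean at 10WK was 12.8 times that at 11EM, and the order of the means followed age from 11EM to 10WK.

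let-7f-5p had 10528, 12889 and 14312 CPM at 11EM and its highest level at 15EM, with 27430.1, 29914 and 22686 CPM. It had 22265 and 25012 CPM at 20EM, 18525, 20220.1 and 20335 CPM at 1DB, 25984, 21682 and 19116 CPM at 4WK, and 21509.7, 18899 and 20985 CPM at 10WK. The libraries at 11EM lay below all 14 later ones, as they did for every member but let-7c-5p. Those at 1DB and 10WK lay below those at 15EM and 20EM, while 4WK overlapped with every stage but 11EM.

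let-7a-5p had 4425, 5423 and 6205 CPM at 11EM, 8238, 8874 and 6751 CPM at 15EM, and 7197 and 8584 CPM at 20EM. It had 9323, 9860.3 and 9774 CPM at 1DB, 13577, 10028 and 10844 CPM at 4WK, and 11366, 11296 and 10739 CPM at 10WK. In CPM all 9 libraries after hatch were above all 8 before hatch, whereas per 1000000 clean reads let-7a-5p averaged 2174 ± 635 after hatch (SD, n = 9) and 3750.5 ± 1260.5 before (SD, n = 8), with overlap. The stage means of let-7j-5p, 3661 ± 117 CPM at 10WK and 1780.3 ± 297 CPM at 11EM (SD, n = 3 each), carried the same counts.

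let-7i had 2853, 3927 and 4332 CPM at 11EM, 6446, 7435 and 5701 CPM at 15EM, and 6489 and 7422 CPM at 20EM. It had 5454, 5748 and 5385 CPM at 1DB, 9558, 7991 and 6469 CPM at 4WK, and 6665, 6531 and 6003 CPM at 10WK. The 1DB libraries lay within or below the range of 15EM, and those at 4WK spread most. let-7g-5p, the member with the smallest range apart from let-7c-5p, averaged 1931 ± 263 CPM at 11EM, then 2886 ± 494 CPM at 15EM and 2712 ± 629 CPM at 20EM. After hatch it averaged 2715 ± 148 CPM at 1DB, 2938 ± 297 CPM at 4WK, and 2869.7 ± 276 CPM at 10WK (SD over 3 libraries, or 2 at 20EM).

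let-7c-5p did not have its lowest level at 11EM. It had 2297, 2502 and 3648 CPM at 11EM, 3084, 2378 and 2331 CPM at 15EM, and 2229.8 and 2553 CPM at 20EM. It had 2832, 2972 and 2665 CPM at 1DB, 2506, 1883 and 2236 CPM at 4WK, and 2773, 2823 and 2558 CPM at 10WK. Libraries before and after hatch overlapped, and the highest stage mean, at 1DB, was 1.28 times the lowest, at 4WK.

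**Figure D2:**
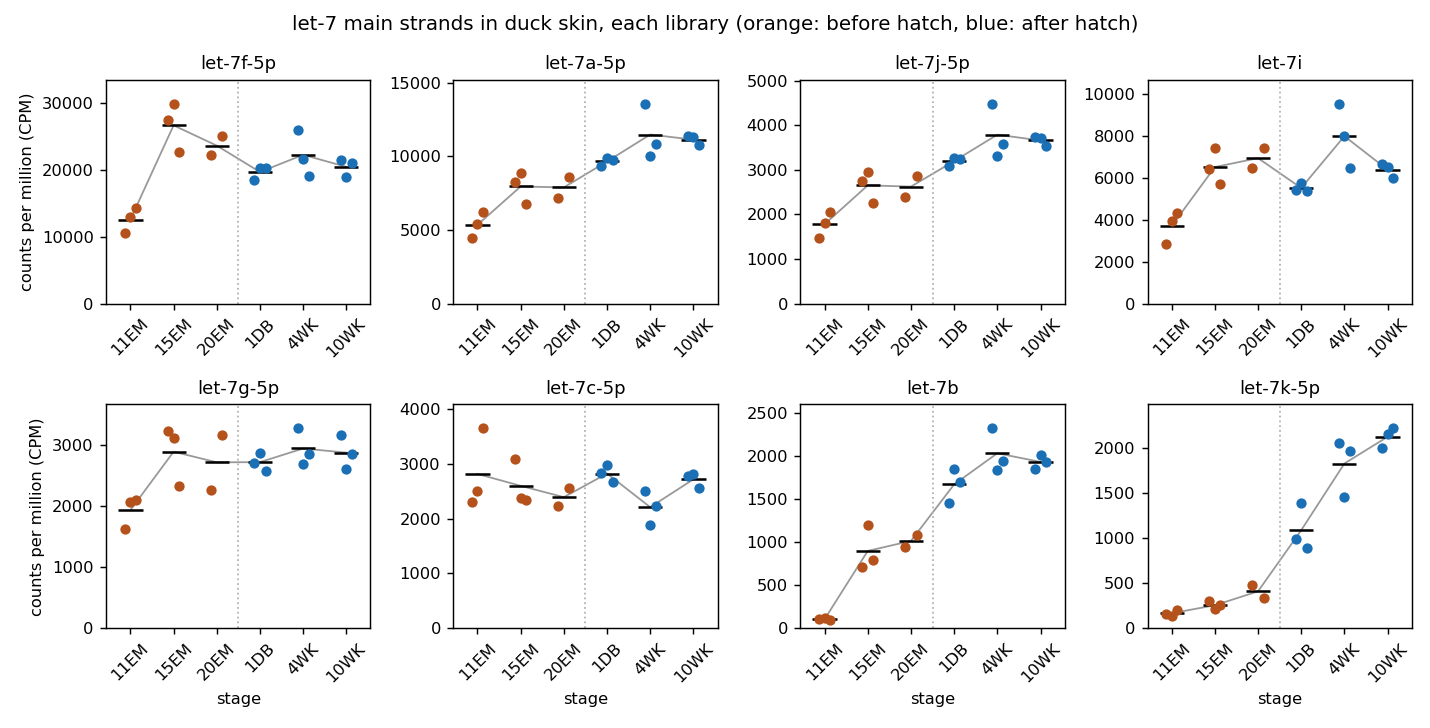
Level of each let-7 main strand (vertical axes, CPM, linear and starting at 0) by stage (horizontal axes). Points are libraries, orange before hatch and blue after hatch, and bars are stage means, joined by a grey line. In CPM, let-7b climbs between 11EM and 15EM and again at 1DB, let-7k-5p climbs mostly from 1DB on, and let-7c-5p stays between 1883 and 3648 CPM.

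The make-up of the family shifted with age, and this shift does not depend on how the libraries are scaled, since each share is taken within a library. let-7b accounted for 0.374% ± 0.0828 of the summed counts at 11EM, then for 1.77% ± 0.39 at 15EM and 2.13% ± 0.00807 at 20EM. After hatch it accounted for 3.59% ± 0.28 at 1DB, then for 3.73% ± 0.196 at 4WK and 3.77% ± 0.27 at 10WK. let-7k-5p accounted for 0.589% ± 0.0991, 0.513% ± 0.121, 0.874% ± 0.299, 2.34% ± 0.504, 3.37% ± 0.588 and 4.15% ± 0.323 at the same stages in order (SD over 3 libraries, or 2 at 20EM). Both shares lay higher in every library after hatch than in any before hatch, at 3.29% or more against 2.13% or less for let-7b and at 1.90% or more against 1.09% or less for let-7k-5p. let-7f-5p held 39.9% ± 1.86 of the sum at 10WK, its lowest share, and 52.9% ± 0.422 at 15EM, its highest. let-7c-5p held between 4.07% and 6.09% on average at the later stages and 9.84% ± 1.2 at 11EM.

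**Figure D3:**
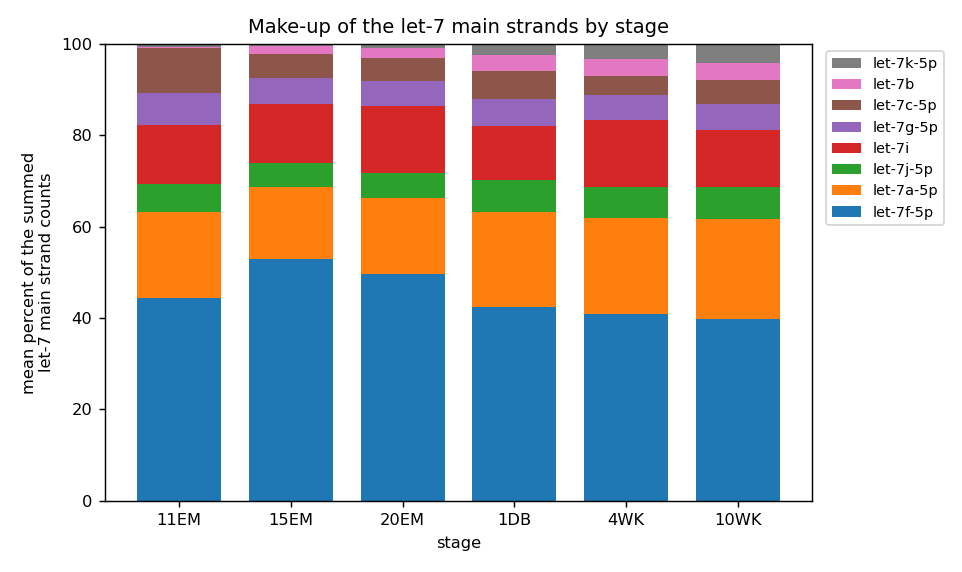
Mean percent of the summed let-7 main strand counts (vertical axis) taken by each member at each stage (horizontal axis). let-7f-5p takes the largest part at every stage, 39.9% at 10WK and 52.9% at 15EM, and the parts of let-7b and let-7k-5p are wider after hatch than before.

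Strands that differ by 1 base changed in ratio. There were 75.9 counts of let-7f-5p for each count of let-7k-5p at 11EM, and before hatch the number was then 105 at 15EM and 58.5 at 20EM. After hatch it was 18.4 at 1DB, then 12.2 at 4WK and 9.62 at 10WK (geometric means over libraries). There were 26.6 counts of let-7c-5p for each count of let-7b at 11EM, then 2.95 at 15EM and 2.36 at 20EM, and after hatch 1.70 at 1DB, then 1.09 at 4WK and 1.41 at 10WK. Neither ratio was level across the stages.

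Successive stages were then compared with edgeR's quasi-likelihood test in 1 fit of all 6 stages, after scaling by the trimmed mean of M-values (TMM). Of the 353 miRNAs, 252 had at least 1 CPM in at least 2 libraries and were tested, all 8 members among them, and a miRNA was called at a Benjamini-Hochberg adjusted p under 0.05. Over the 6 stages 8 of 8 members were called, against 84.9% of all miRNAs tested. With library totals, with limma and with no filter on low counts 7 of 8 were, against 85.3%, 86.1% and 62.3% of all tested. let-7c-5p then had adjusted p of 0.35, 0.33 and 0.13 in that order. The adjusted p was smallest for let-7k-5p (1.1e-09) and let-7b (5.6e-09) and largest for let-7c-5p (0.039).

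Between 11EM and 15EM, while the follicles formed, the family rose relative to the other miRNAs. Of the 8 members, 7 were higher at 15EM, against 19.4% of all tested called higher and 23.8% lower, or 43.3% either way, and the median log2 fold change was 0.51 for the members and -0.17 for all tested. Among them let-7b alone was called with a fold change of at least 2, against 28.6% of all tested. let-7b rose most, by 3.03 ± 0.22 on the log2 scale (SE, adjusted p = 2.8e-07), and let-7f-5p rose by 1.00 ± 0.16 (adjusted p = 0.00017). let-7i (0.73 ± 0.18), let-7k-5p (0.53 ± 0.19), let-7j-5p (0.49 ± 0.16), let-7a-5p (0.48 ± 0.16) and let-7g-5p (0.48 ± 0.17) rose less, and let-7c-5p had -0.21 ± 0.16 (adjusted p = 0.32). Without replicate 2 at 15EM 4 members were called, against 34.1% of all tested, and let-7a-5p, let-7j-5p and let-7g-5p had adjusted p of 0.116 to 0.119. let-7g-5p and let-7k-5p also lost the call without replicate 1 at 15EM, and let-7k-5p without replicate 3 at 15EM (adjusted p of 0.072 to 0.098). With the clean-read split (a library with under 96% or with over 98% of its raw reads clean) as a covariate 5 members were called, against 39.3% of all tested. let-7g-5p and let-7k-5p then had an adjusted p of 0.051 each. With let-7a-5p and let-7j-5p, the shared sequence, summed 6 of 7 were called, against 38.2% of all tested. Scaled by clean reads in place of TMM, 2 of 8 were called by edgeR, let-7b and let-7f-5p, against 22.2% of all tested. In the libraries with under 96% clean reads alone 4 were called, against 26.2%.

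Between 15EM and 20EM 1 of 8 members was called, against 25.0% of all tested, with 7.14% called higher and 17.9% lower. With a fold change of at least 2 required, 0 were called by edgeR, against 13.9%. It was let-7k-5p, which rose by 0.71 ± 0.21 on the log2 scale (SE, adjusted p = 0.024). The other members had log2 fold changes between -0.14 for let-7f-5p and 0.19 for let-7b. The call of let-7k-5p was lost without replicate 2 at 15EM (adjusted p = 0.076), without replicate 1 at 20EM (adjusted p = 0.219), and in a fit with a replicate block. In that fit 0 of 8 members were called, against 17.5% of all tested.

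Across hatch, from 20EM to 1DB, 5 of 8 members were higher relative to the other miRNAs, and 3 of these (let-7a-5p, let-7j-5p and let-7c-5p) had negative log2 fold changes when the libraries were scaled by their clean reads. On that scale 0 of 8 were called by edgeR, against 42.9% of all tested. let-7k-5p then had 0.66 (adjusted p = 0.26) and let-7b 0.13 (adjusted p = 0.80). After TMM scaling 19.8% of all tested were called higher and 24.2% lower, or 44.0% either way. At a fold change of at least 2, 1 member was called, let-7k-5p, against 28.6%. let-7k-5p rose by 1.65 ± 0.22 on the log2 scale (SE, adjusted p = 7.2e-05) and let-7b by 0.96 ± 0.24 (adjusted p = 0.0044). let-7a-5p and let-7j-5p, the shared sequence, each rose by 0.53 ± 0.18, and let-7c-5p by 0.48 ± 0.18 (adjusted p = 0.044). let-7g-5p (0.23 ± 0.19), let-7f-5p (-0.02 ± 0.18) and let-7i (-0.09 ± 0.20) were not called. The 20EM group had 2 libraries, and 1 member, let-7k-5p, was called without its replicate 1, against 28.2% of all tested. Without replicate 2 or 3 at 1DB 3 and 2 members were called, against 36.5% and 35.5% of all tested. With library totals in place of TMM 2 were, let-7b and let-7k-5p, against 41.3%. The call of let-7c-5p was also lost without replicate 1 at 1DB (adjusted p = 0.074) and on leaving out any of 7 libraries of other stages, which were the second at 11EM, the second or the third at 15EM, the third at 4WK and each of those at 10WK (adjusted p of 0.053 to 0.076).

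Between 1DB and 4WK 2 of 8 members were called, 1 in each direction after TMM scaling, against 34.5% of all tested, 20.2% higher and 14.3% lower. Neither reached a fold change of 2, against 22.2% of all tested called with one. let-7k-5p rose by 0.64 ± 0.19 on the log2 scale (SE, adjusted p = 0.016, but -0.083 when scaled by clean reads), and let-7c-5p fell by 0.47 ± 0.16 (adjusted p = 0.033). let-7i had 0.42 ± 0.18 (adjusted p = 0.083). With library totals, and likewise with limma, the 2 called were both higher, let-7k-5p (0.75 and 0.76) and let-7i (0.53 and 0.52), and let-7c-5p was not called (adjusted p = 0.13 and 0.11). Of all tested 34.5% and 37.3% were called in these settings. The calls could be lost on leaving out a single library: 0 members were called without replicate 1 at 1DB, against 31.3% of all tested. The fold changes moved little there, to -0.48 for let-7c-5p and 0.57 for let-7k-5p (edgeR, adjusted p = 0.063 each). Without replicate 2 or 3 at 1DB or replicate 1 or 2 at 4WK 1 was called, against 27.4%, 25.9%, 34.9% and 27.6% in that order. Without replicate 3 at 4WK let-7c-5p was not called (adjusted p = 0.079) and let-7i was, at 0.60 (adjusted p = 0.014), as it was without replicate 3 at 11EM (adjusted p = 0.048).

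Between 4WK and 10WK 0 of 8 members were called by edgeR, against 2.38% of all tested, 1.19% in each direction. At an unadjusted p under 0.05 there was 1, let-7c-5p, with a log2 fold change of 0.43 ± 0.16 (SE, adjusted p = 0.13). DESeq2 and limma also called 0, against 12.7% and 6.35% of all tested. let-7k-5p had 0.35 ± 0.19 (adjusted p = 0.32), and the other 6 lay between -0.20 and 0.10.

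**Figure D4:**
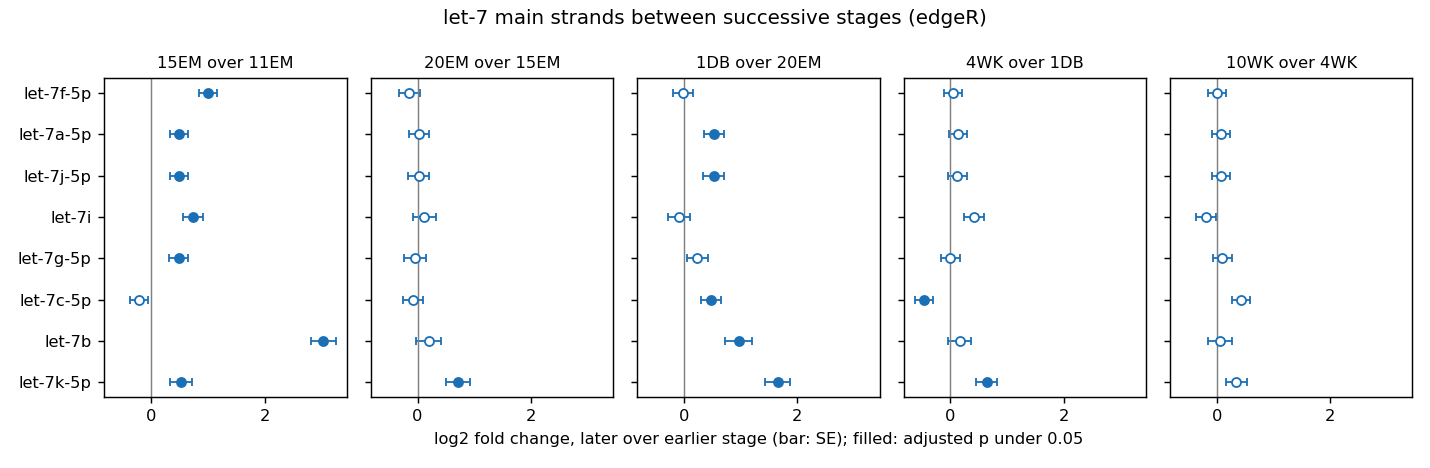
Log2 fold change of each let-7 main strand (rows) between successive stages (panels), later over earlier stage, with its SE as a bar and a filled point for an adjusted p under 0.05 in edgeR. The largest points are let-7b at 15EM over 11EM (3.03) and let-7k-5p at 1DB over 20EM (1.65), and no point is filled at 10WK over 4WK.

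Over the whole course 7 of 8 members were higher at 10WK than at 11EM relative to the other miRNAs, and 5 of these, all but let-7b and let-7k-5p, had negative log2 fold changes when scaled by clean reads. This stands against 28.6% of all tested called higher and 39.7% lower, or 68.3% either way. A fold change of at least 2 left 4 members, let-7a-5p and let-7j-5p with their shared sequence among them, against 58.7%. let-7b rose by 4.41 ± 0.24 and let-7k-5p by 3.88 ± 0.21 on the log2 scale (SE, adjusted p = 6.6e-10 and 6.7e-10). let-7a-5p rose by 1.25 ± 0.16, let-7j-5p by 1.24 ± 0.16, let-7i by 0.98 ± 0.18, let-7f-5p by 0.90 ± 0.16 and let-7g-5p by 0.77 ± 0.17. let-7c-5p had 0.15 ± 0.16 (adjusted p = 0.43), although its mean CPM was lower at 10WK, 2718 ± 141, than at 11EM, 2816 ± 728 (SD, n = 3 each). Scaled by clean reads, let-7c-5p was called lower (-1.61, edgeR, adjusted p = 0.00051). In that setting 5 of 8 members were called, 2 higher and 3 lower, against 79.8% of all tested. With a minimum of 10 CPM in 3 libraries 8 of 8 were called higher, against 73.2% of all tested called. With let-7a-5p and let-7j-5p summed 7 of 7 were called higher, against 70.5%. Without replicate 3 at 11EM, in which let-7c-5p was highest, it was called at 0.61 (adjusted p = 0.0013). It was also called without replicate 3 at 1DB or replicate 2 or 3 at 4WK (adjusted p of 0.021 to 0.030). In these leave-one-out fits the median log2 fold change of all tested moved too, from -0.26 to between -0.023 and 0.019. The SEs given do not cover such a shift of all miRNAs.

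The 9 libraries after hatch were also set against the 8 before hatch, as the mean of 3 stages against the mean of 3 stages. Of the 8 members 7 were higher after hatch relative to the other miRNAs, and again 5 of these, all but let-7b and let-7k-5p, were lower when scaled by clean reads. This stands against 34.1% of all tested called higher and 42.9% lower, or 77.0% either way, and the median log2 fold change was 0.63 for the members and -0.16 for all tested. A fold change of at least 2 left 2 members, let-7b and let-7k-5p, against 50.4%. let-7k-5p rose by 2.85 ± 0.12 and let-7b by 2.23 ± 0.13 on the log2 scale (SE, adjusted p = 6.2e-11 and 6.5e-10). let-7a-5p rose by 0.82 ± 0.10, let-7j-5p by 0.81 ± 0.10, let-7i by 0.45 ± 0.11, let-7g-5p by 0.40 ± 0.10 and let-7f-5p by 0.26 ± 0.10 (adjusted p = 0.025). let-7c-5p had 0.19 ± 0.10 (adjusted p = 0.094). With library totals and with limma 5 of 8 were called, against 74.6% and 76.2% of all tested. The calls lost were those of let-7f-5p (0.06 in both) and let-7g-5p (0.20 and 0.21, adjusted p = 0.076 and 0.062). In contrast 8 of 8 were called, let-7c-5p included, with DESeq2 (let-7c-5p at 0.30, adjusted p = 0.0055), with the clean-read split as a covariate (0.31, adjusted p = 0.0039) and with a minimum of 10 CPM in 3 libraries (adjusted p = 0.0081). Of all tested 77.0%, 71.0% and 79.8% were called in these settings, in that order. In CPM the levels of let-7k-5p, let-7b, let-7a-5p and let-7j-5p, the last 2 being 1 sequence, did not overlap between the periods, whereas the levels of the others did. The share of all tested miRNAs without overlap was not counted, so this separation is not shown to be particular to let-7.

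The calls of let-7i, let-7g-5p and let-7f-5p rested on 11EM, while let-7c-5p was called without it. Without the 11EM libraries 5 of 8 members were called, against 75.8% of all tested, namely let-7k-5p (2.49), let-7b (1.13), let-7a-5p (0.60), let-7j-5p (0.59) and let-7c-5p (0.21, adjusted p = 0.038). let-7g-5p had 0.19 (adjusted p = 0.10), let-7i 0.13 (adjusted p = 0.27) and let-7f-5p -0.11 (adjusted p = 0.33). With all stages, the call of let-7f-5p was also lost without replicate 1 at 20EM (adjusted p = 0.091) or replicate 1 at 4WK (adjusted p = 0.051). let-7c-5p was called without replicate 2 or 3 at 11EM, replicate 3 at 1DB, or replicate 2 or 3 at 4WK (adjusted p of 5.0e-04 to 0.016). In the fits that gained this call the median log2 fold change of all tested lay between -0.077 and -0.024, against -0.16 with all libraries.

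These differences are relative to the other miRNAs. Scaled instead by all clean reads that the study counted in each library, the median of all tested was -1.78 on the log2 scale after over before hatch, and 6 members were lower after hatch: let-7c-5p (-1.40), let-7f-5p (-1.32), let-7g-5p (-1.16), let-7i (-1.14), let-7j-5p (-0.76) and let-7a-5p (-0.75). let-7k-5p and let-7b were higher after hatch on this scale too, by 1.22 ± 0.25 and 0.66 ± 0.23 (SE, edgeR, adjusted p = 0.00012 and 0.0097). Of all tested 88.1% were called either way on the clean-read scale. All 8 members lay above the median of all tested on both scales. The second scale is no separate check of this, since rescaling a library shifts all its miRNAs alike. In the 12 libraries with under 96% clean reads alone, 6 of 8 members were higher after hatch, against 72.6% of all tested called either way, let-7k-5p by 2.67 and let-7b by 2.16, while let-7f-5p had 0.24 (adjusted p = 0.055) and let-7c-5p 0.20 (adjusted p = 0.082). The other 5 libraries held 1 after hatch, so no test could be made within them.

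Some markers of other cell types were also called after over before hatch. Of all tested 77.0% were called either way, 34.1% higher and 42.9% lower, so calls among the markers are not shown to be particular to them. In bulk skin, fewer cells of a type and less RNA per cell cannot be told apart. The 2 red blood cell miRNAs, miR-451 and miR-144-3p, summed to 9382 to 21235 CPM after hatch and 1830 to 4289 CPM before, with miR-451 higher (2.77 ± 0.22 on the log2 scale) and miR-144-3p lower (-0.41 ± 0.18). Of the 4 leukocyte miRNAs 3 were higher after hatch, and the list summed to 1014 to 9308 CPM after and 448 to 742 CPM before, with miR-155 at 0 in 14 of 17 libraries. Of the 6 skeletal muscle miRNAs 2 were higher and 1, miR-206, was lower after hatch, and the list summed to 5200 to 15005 CPM after and 453 to 14073 CPM before, with its lowest levels at 15EM. The 6 epidermal miRNAs summed to 36358 to 87433 CPM after and 21955 to 118963 CPM before, with 1 higher, miR-203a, and 2 lower. The 2 endothelial and the 2 cartilage miRNAs were all higher after hatch. The part of these cells in the let-7 levels was not tested.

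Few steps in the order of the stage means were called. The order is that of the means in CPM, while the tests were made after TMM scaling, so a tested step can run the other way. For let-7b, 10WK over 4WK had 0.056 on the log2 scale, although its mean CPM was lower at 10WK. For let-7b the means ran 11EM, 15EM, 20EM, 1DB, 10WK and 4WK, and of the neighbours in this order 11EM and 15EM, and 20EM and 1DB, differed in edgeR. The call of let-7b between 20EM and 1DB was lost without replicate 1 at 20EM (edgeR, adjusted p = 0.065). For let-7k-5p every neighbour was called except 4WK and 10WK. Its calls for 15EM over 11EM, 20EM over 15EM and 4WK over 1DB were each lost on leaving out a single library, as given above. For let-7a-5p the means ran 11EM, 20EM, 15EM, 1DB, 10WK and 4WK, with 11EM below 20EM and 15EM below 1DB (adjusted p = 0.029 and 0.0070) and no other neighbours called. For let-7f-5p and let-7i the lowest step, 11EM to 1DB, was the single step called (adjusted p = 0.00035 and 0.0015). For let-7g-5p and let-7c-5p no neighbours were called.

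The passenger strands from the other arm of the hairpins were scarce. The 7 listed let-7 3p strands summed to 131 to 270.2 CPM in libraries after hatch and 125 to 257 CPM before. After hatch 4 of the 7 were higher (let-7j-3p, let-7a-3p, let-7k-3p and let-7f-3p), 2 were lower (let-7c-3p and let-7a-2-3p), and let-7g-3p was not called. This stands against 34.1% of all tested called higher and 42.9% lower, or 77.0% either way. The counts are thus not shown to be particular to the 3p strands. let-7a-3p and let-7k-3p are 1 sequence and each held 47.9% to 52.1% of its counts. let-7j-3p rose by 2.08 ± 0.15 on the log2 scale (SE, adjusted p = 8.3e-09) and let-7c-3p fell by 2.31 ± 0.17 (adjusted p = 7.5e-09). let-7d, with the let-7 seed, had at most 0.854 CPM in any library, at or under 3 counts in all 17, and was not tested.

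The ratio of the arms was compared for let-7c, let-7f and let-7g, the hairpins whose arms are each shared with no other listed let-7 hairpin. This ratio is taken within a library and does not depend on scaling. However, let-7c-5p differs from let-7a-5p and from let-7b by a single base, and so does let-7c-3p from let-7a-2-3p. Whether reads passed between these strands was not tested. For let-7c there were on average 58.0 counts of the 5p strand for each count of the 3p strand at 11EM, then 82.2 at 15EM and 184 at 20EM, and after hatch 462 at 1DB, then 534 at 4WK and 614 at 10WK (geometric means). The counts of let-7c-3p ran from 13 to 51 per library after hatch and 49 to 907 before. On the log2 scale the let-7c ratio was 9.06 ± 0.41 after hatch (SD, n = 9) and 6.46 ± 0.79 before (SD, n = 8), a difference of 2.60 with no overlap (exact permutation test, two-sided, p = 8.2e-05, the smallest that 24310 splits can give, and 0.00025 adjusted over the 3 hairpins). Without the 11EM libraries the difference was 2.23 (adjusted p = 0.0030, exact permutation test). The permutation tests of the 3 hairpins moved single libraries without regard to stage. Before hatch the let-7c ratio also differed between stages, at 5.86 for 11EM, 6.36 for 15EM and 7.53 for 20EM (means, log2 scale). The p-values therefore do not measure the spread between stages, and they may be too small for 3 stages against 3.

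The let-7f ratio was 10.4 ± 0.26 after hatch and 10.5 ± 0.40 before on the log2 scale (SD, n = 9 and 8), a difference of -0.08 (exact permutation test, adjusted p = 0.60). The let-7g ratio was 8.25 ± 0.44 after hatch and 7.96 ± 0.55 before, a difference of 0.29 (exact permutation test, n = 9 and 8, adjusted p = 0.37). Whether the let-7c difference exceeded those of let-7f and let-7g was not tested.

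**Figure D5:**
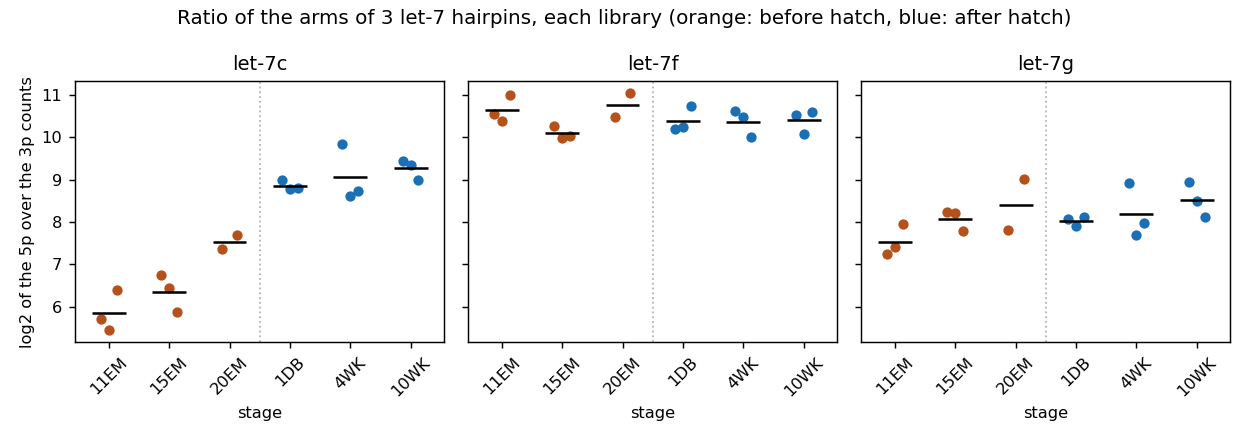
Log2 of the 5p over the 3p counts (vertical axis, 0.5 added to each count) for the hairpins let-7c, let-7f and let-7g by stage (horizontal axes). Points are libraries, orange before hatch and blue after hatch, and bars are stage means. The let-7c points lie between 8.61 and 9.84 after hatch and between 5.45 and 7.69 before, while those of let-7f and let-7g overlap.

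In other vertebrates some let-7 genes lie in clusters with miR-99a, miR-100 or miR-125b. Of these, miR-100-5p rose by 0.74 ± 0.11 and miR-125b-5p by 0.62 ± 0.09 on the log2 scale after hatch (SE, adjusted p = 2.4e-05 and 1.2e-05), and miR-99a-5p fell by 0.26 ± 0.11 (adjusted p = 0.039). At 15EM over 11EM, the step at which 7 let-7 strands rose after TMM scaling, 0 of these 3 were higher by edgeR and 1, miR-125b-5p, was lower, by 0.75 ± 0.14 (adjusted p = 0.00066). At this step 19.4% of all tested were called higher and 23.8% lower, and after over before hatch 34.1% and 42.9%. The calls of these 3 are thus not shown to differ from those of other miRNAs.

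Outside the family, likeness was taken as Pearson's r over the 6 stage means of log2(CPM + 1) after TMM scaling, among 111 miRNAs with a mean of at least 100 CPM. The let-7 sum was TMM-scaled here too, so its stage means are not those in CPM given above. Closest to this sum were miR-365-3p (0.98), miR-24-3p (0.97) and miR-27b-3p (0.93). The same 3 stood closest to let-7b (0.98, 0.97 and 0.94). For let-7k-5p they were miR-29a-3p (0.99), miR-219b (0.98) and miR-451 (0.98), the last a miRNA of red blood cells. These values describe 6 stage means from the same libraries and carry no test.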

How the data were processed

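Skin from 6 stages gave 18 small RNA libraries, of which 17 were used. Replicate 2 of 20EM was not analysed here. Per the labels and the methods, the authors enriched RNA under 200 bases, made TruSeq small RNA libraries and assigned reads to chicken hairpins (the submitters' processing notes name miRBase 21 and CLC Genomic Workbench 5.5). The deposited values are raw counts per hairpin arm, not normalized. A read count from PCR-amplified libraries without molecular identifiers is not a count of independent molecules. The mismatches allowed and the way shared reads were divided are not given in the sources used here.

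Counts were summed by mature name and expressed as CPM of the library total. edgeR 4.0.16 (TMM, glmQLFit and glmQLFTest, R 4.3.3) was fitted to the 252 miRNAs that reached 1 CPM in 2 or more libraries, with Benjamini-Hochberg adjustment over all 252 and a threshold of 0.05. The fit was tested on simulated data. Arm ratios, with 0.5 added to each count, were compared by exact permutation tests over single libraries, without regard to stage (scipy 1.17.1). Alternatives were library totals, DESeq2 1.42.0, limma 3.58.1 on log2(CPM + 1), other filters, the study's clean reads as library size, the replicate number as a block, summing identical strands, a fold change of at least 2, and leaving out each library. The clean-read split (under 96% or over 98% of raw reads), the same split as a covariate and the fit without 11EM were added after seeing the data. Replicates of a stage differed by more than sampling noise.

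All 8 members are named in every comparison, with the 3p strands, let-7d, the cluster partners, the marker lists and, by likeness, the 3 miRNAs closest in stage means to the sum and to each of the 2 strands of widest range. The members and lists were chosen with earlier results of these data known.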

Additional observations from a re-analysis of the deposited data

Results flagged for a closer look

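Among the 9 libraries after hatch, replicate 1 at 4WK stood apart from the others in let-7a-5p (13577 CPM, with the next library at 11366), in let-7j-5p (4485 CPM, next 3733), which is the same sequence, in let-7f-5p (25984 CPM, next 21682) and in the sum of the 8 strands (63755 CPM, next 53057). In each case the gap to the next library, as a share of the whole range, was above Dixon's critical value. These were 4 of 24 groups checked. The 4 are not independent, since all come from the same library and the sum contains the other strands flagged. Each group also pools stages, so how often chance would flag one is not known here. This library is also the single one after hatch with over 98% clean reads.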

How the results depend on the processing

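Of 56 member comparisons 29 were called, and the share of all tested is given above for each comparison. On leaving out each library in turn 907 of 952 values kept their side of the threshold, 34 lost the call and 11 gained it. Of values called in either fit 0 reversed. A change of sign with no call in either fit was counted among the 907, so direction was not always kept. The members called then numbered 4 to 7 for 15EM over 11EM, against 34.1% to 43.3% of all tested. Brackets below give this share. They numbered 0 to 1 for 20EM over 15EM (9.52% to 25.4%) and 1 to 5 for 1DB over 20EM (28.2% to 46.8%). For 4WK over 1DB they numbered 0 to 3 (25.9% to 34.9%), and for 10WK over 4WK 0 to 0 (1.19% to 10.4%). For 10WK over 11EM they numbered 7 to 8 (65.1% to 71.1%), and for after over before hatch 6 to 8 (70.6% to 75.9%). Over all stages 7 to 8 were called (82.5% to 86.5%). Arm ratio differences ran from 2.45 to 2.77 for let-7c, -0.15 to -0.0015 for let-7f and 0.19 to 0.44 for let-7g.

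With a fold change of at least 2 required, 1 member was called for 15EM over 11EM, 0 for 20EM over 15EM, 1 for 1DB over 20EM, 0 for 4WK over 1DB, 4 for 10WK over 11EM and 2 for after over before hatch. The shares of all tested were 28.6%, 13.9%, 28.6%, 22.2%, 58.7% and 50.4%, in that order. For 1DB over 20EM 2 were called with library totals, with limma and with no filter, against 41.3%, 40.5% and 27.8% of all tested. With let-7a-5p and let-7j-5p summed 3 of 7 were, against 43.8%. For 4WK over 1DB 1 was called with no filter, against 22.1%. In the libraries with under 96% clean reads alone 4 were called for 15EM over 11EM, 0 for 20EM over 15EM and 1 for 4WK over 1DB, against 26.2%, 5.65% and 35.5% of all tested. With the clean-read split as a covariate 1, let-7c-5p, was called for 10WK over 4WK (adjusted p = 0.040), against 2.38% of all tested. In that fit 5 in place of 7 were called for 15EM over 11EM (39.3% of all tested) and 8 in place of 7 for after over before hatch (71.0%). For after over before hatch 5 were called with library totals and with limma (74.6% and 76.2% of all tested), and 8 with DESeq2 and with the stricter filter (77.0% and 79.8%). The cause of these changes was not tested.

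Scaled by clean reads, the members called were 2 for 15EM over 11EM, 0 for 20EM over 15EM, 0 for 1DB over 20EM and 1 for 4WK over 1DB. Of all tested 22.2%, 15.5%, 42.9% and 34.1% were called on this scale, in that order. On this scale the log2 fold changes after over before hatch were -0.75 for let-7a-5p, -1.40 for let-7c-5p, -1.32 for let-7f-5p, -1.16 for let-7g-5p, -1.14 for let-7i and -0.76 for let-7j-5p. At 10WK over 11EM they were -0.49 for let-7a-5p, -1.61 for let-7c-5p, -0.84 for let-7f-5p, -0.96 for let-7g-5p, -0.76 for let-7i and -0.51 for let-7j-5p, at 1DB over 20EM -0.30 for let-7a-5p, -0.37 for let-7c-5p and -0.30 for let-7j-5p, and at 4WK over 1DB -0.083 for let-7k-5p. The medians of all tested were -1.78 and -1.99 after over before hatch and at 10WK over 11EM, against -0.16 and -0.26 with TMM. Without 11EM let-7f-5p had -0.11 after over before hatch.

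Replicate numbers did not pair the libraries: the mean correlation of deviations was -0.057 over 40 pairs of the same number and 0.029 over 80 of different numbers, and 1 of 17 libraries correlated best with its own number. With the replicate block 0 members were called for 20EM over 15EM, against 17.5% of all tested, and no other count of members called moved.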
